A study of Mus musculus with 27 samples.

Results

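The Rab GTPases are the largest branch of the Ras superfamily of small GTP-binding proteins. Each one marks the cytosolic face of particular membranes, where in its GTP-bound form it recruits effectors that tether, move or fuse vesicles. Guanine nucleotide exchange factors load GTP, GTPase-activating proteins, most of them with a TBC domain, end the active state, and an escort protein and a prenyltransferase attach the lipid that holds the Rab on the membrane. In macrophages these genes are known for ordering phagosome maturation, from Rab5 on young phagosomes to Rab7 on late ones, and for carrying Toll-like receptors and cytokines to and from the cell surface. The Rab genes were taken here as every protein-coding gene whose mouse symbol is Rab followed by a number and at most 1 letter, with a normalised count of at least 10 in at least 3 of the 27 samples. By symbol there were 59 such genes, of which 45 passed this minimum and were described, out of 13901 genes that passed it among 45070 in the table.

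The RNA was chromatin-associated RNA, the fraction held on chromatin and rich in transcripts still being made, from bone-marrow-derived macrophages of male C57/BL6 mice. All 9 groups were wild type and had been pre-treated for 1 h with DMSO, so the untreated cells carried the vehicle too. The groups were untreated cells and cells given either LPS at 10 ng/ml or IL-4 at 10 ng/ml for 0.5 h, 1 h, 2 h or 4 h, with 3 replicates each. LPS is a bacterial cell wall component read by TLR4, and IL-4 is a T helper 2 cytokine that signals through STAT6. The labels do not say whether the replicates are separate cultures or animals, so the p-values measure the spread between these samples, which may be technical.

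Values were whole-number normalised counts per gene that the authors had scaled on invariant genes, and 1 unit is not 1 read. The sums over all genes were 2469768 to 2790981 in untreated and IL-4 samples and 3571492 to 4058199 in LPS samples, and they are not sequencing depths. LPS and IL-4 responses were seen in the cells: Tnf was at 4 to 9 in untreated samples and at 1881 to 2527 after 0.5 h of LPS, and Retnla was at 0 in all untreated samples and at 74 to 140 after 4 h of IL-4. All 8 macrophage markers were measured, with sums of 9594 to 10677 in untreated, 9616 to 17757 in LPS and 10616 to 13824 in IL-4 samples, whereas none of the T and NK cell or B cell markers and none of the erythroid and mast cell markers passed the minimum, with Cd3e, Cd3g, Nkg7, Hbb-bs and Mcpt4 at 0. The neutrophil list passed through Ltf alone, with Ly6g at 0 and sums of 2 to 8, 2 to 63 and 3 to 31 in untreated, LPS and IL-4 samples. The dendritic cell list passed through Dpp4, Flt3 and Zbtb46, with Xcr1 at 0 and sums of 8 to 10, 9 to 103 and 12 to 24, and the fibroblast list through Col1a1 and Col1a2, with sums of 37 to 89, 33 to 218 and 28 to 209. The part of other cells in the results below was not tested, and in bulk samples fewer cells of a type and less RNA per cell cannot be told apart.

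The minimum set which Rab genes were described, and it was read from the same samples. The 14 Rab genes left out were Rab13, Rab15, Rab17, Rab25, Rab27b, Rab33a, Rab34, Rab36, Rab39b, Rab3b, Rab3c, Rab3d, Rab42 and Rab9b, many of them known from epithelial, neuronal or secretory cells. Rab3d was at 0 in every sample and Rab17 and Rab9b reached no more than 1. Just inside the minimum, Rab40b had 3 samples at 10 or above. Just outside it, Rab36 had 2 and Rab13 had 1. Of the 45 genes, 37 had all 3 untreated samples at 10 or above. Rab19, Rab30, Rab40b and Rab44 had untreated means under 10 and passed through stimulated samples, so a difference between groups was built into their choice. Rab3a had 2 untreated samples and no LPS sample at 10 or above, so it passed only with its IL-4 samples and is treated alike. The values of these genes are a description with no test. The counts below include them and are read only beside the shares of all genes. A count given without such a share is listed only and is not read as a trait of the Rab genes.

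Levels in untreated cells spanned a wide range. Per kb of gene span, Rab8b had the highest untreated level, 28.4 normalised counts per kb, followed by Rab1a at 19.2, Rab14 at 18.2, Rab32 at 12.7, Rab11a at 11.8 and Rab43 at 11.8. Rab30 had the lowest, 0.0314, and Rab44 was at 0.0575. Whether intronic reads were counted is not stated, and per kb of cDNA the order differed. There Rab8b was at 455, Rab2a at 331 and Rab31 at 227, while Rab44 was lowest at 0.542. The 45 genes together held 0.376% of the untreated total. Another annotated gene overlaps 20 of them. It lies on the other strand in 17 (Rab10, Rab11b, Rab12, Rab1a, Rab20, Rab22a, Rab2b, Rab37, Rab39, Rab40c, Rab44, Rab4a, Rab5a, Rab6a, Rab6b, Rab7 and Rab8b) and is a miRNA on the same strand in 3 (Rab35, Rab40b and Rab4b). Whether the authors counted by strand is not stated, so for these genes reads of the gene and of its partner cannot be told apart. Pseudogene copies exist for Rab5a, Rab7 and Rab11b, and reads with several mapping positions had been removed.

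The first question was how the Rab genes change over 4 h of LPS. Of the 45 genes, 40 passed the test over the course (limma F test, adjusted p under 0.05), which is 88.9% against a background of 87.6% of all genes tested, so their share was near that of genes at large. Their largest change was a rise in 22 and a fall in 18 (background 32.9% and 54.7%). After 0.5 h, 13 Rab genes had risen from the untreated level and 13 had fallen, against 19.6% risen and 34.4% fallen among all genes. The rises and falls numbered 20 and 13 after 1 h (background 24.8% and 39.0%), 16 and 12 after 2 h (background 26.9% and 39.0%) and 17 and 13 after 4 h (background 25.9% and 37.6%). The median log2 change (log2 fold change of normalised count + 1) of the Rab genes, from the earliest time to the latest, was -0.07, 0.24, 0.10 and 0.00, and that of all genes was -0.24, -0.30, -0.29 and -0.26. The heatmap of log2 fold changes sets out all 45 genes at each time.

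**Figure D1:**
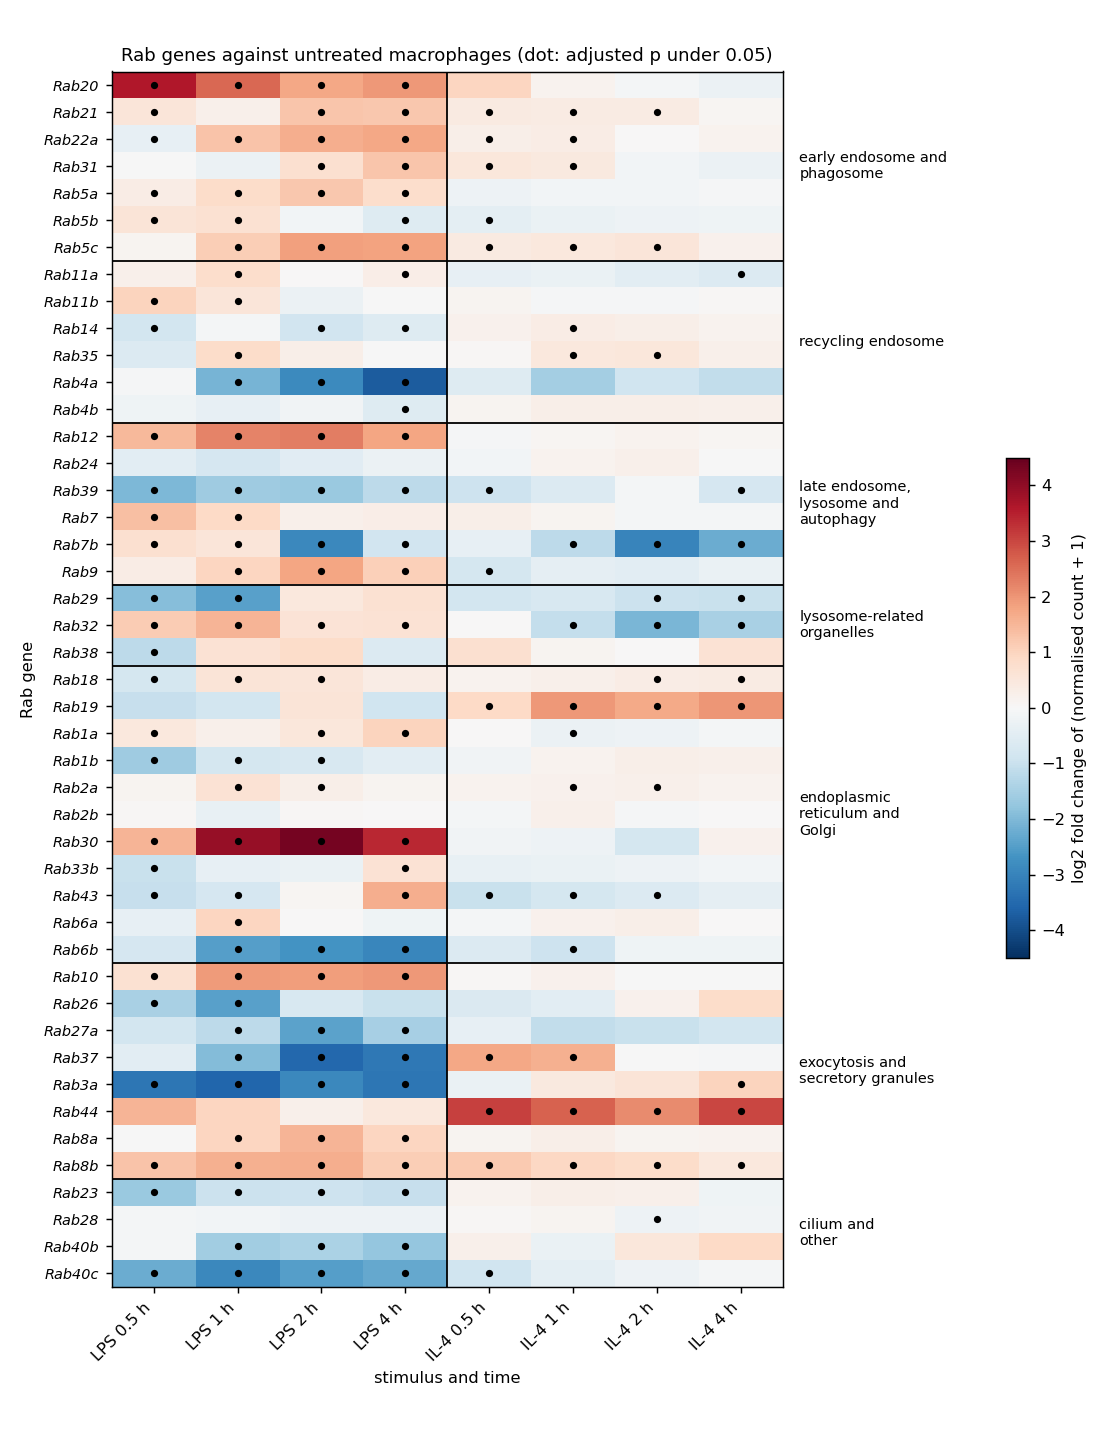
Log2 fold change (normalised count + 1) of 45 Rab genes (rows, grouped by the membrane they are best known for) against untreated macrophages after each time of LPS or of IL-4 (columns, 0.5 to 4 h). A dot marks an adjusted p under 0.05, which is no test for Rab19, Rab30, Rab3a, Rab40b and Rab44. Under LPS, Rab30 and Rab20 carry the strongest rises and Rab37, Rab3a, Rab4a, Rab6b and Rab40c deep falls, and the IL-4 side is paler apart from Rab44, Rab19, Rab37, Rab8b, Rab7b and Rab32.

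How many LPS changes were rises and how many were falls depended on the scaling. With median-of-ratios scaling, the median of all genes was between -0.05 and -0.00, and the Rab genes split into 17 risen and 10 fallen after 0.5 h, then 22 and 9, 19 and 10, and 21 and 10 at the later times. With equal totals, the median of all genes was between -0.91 and -0.73, and the splits were 7 and 27, 11 and 23, 11 and 25, and 13 and 25. Calls that kept direction and threshold under both scalings were 7 of the 13 rises and 10 of the 13 falls after 0.5 h, then 11 of 20 and 9 of 13, 11 of 16 and 10 of 12, and 13 of 17 and 10 of 13 at the later times. Shares of all genes by direction under these scalings are not given, so the splits and kept calls are not weighed against genes at large. Some genes had a rise as their largest LPS change under all 3 scalings and stayed past the threshold when each replicate was left out. They were Rab10, Rab12, Rab1a, Rab20, Rab21, Rab22a, Rab32, Rab5a, Rab5c, Rab7, Rab8a, Rab8b and Rab9. Rab30 is not listed, because the minimum had chosen it through its LPS samples. The falls that held in the same way were Rab14, Rab1b, Rab29, Rab37, Rab40c, Rab4a, Rab6b and Rab7b. Rab3a is not listed, because it passed the minimum only with IL-4 samples. For Rab11a, Rab11b, Rab2a, Rab31, Rab35, Rab43, Rab5b and Rab6a the largest change was a rise as deposited and a fall with equal totals, and for Rab18, Rab33b and Rab38 it was a fall as deposited and a rise with median-of-ratios scaling. Such a switch concerns the largest change over the course, which can move to another time. Against untreated cells at a single time, only Rab2a at 2 h and Rab11a at 4 h were called in the reverse direction. Rab43 at 4 h and Rab6a at 1 h kept their rises under both scalings.

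All 7 Rabs of early endosomes and phagosomes passed the LPS course test, which 87.6% of all genes passed. Each had a rise as its largest change (32.9% of all genes). With equal totals, the largest change of Rab31 and Rab5b was a fall at another time. The Rab31 rise at 4 h kept its call there, and the Rab5b rise at 1 h was 0.11 and did not pass (adjusted p = 0.479). Under IL-4, 4 of the 7 passed with rises, against 40.3% of all genes. These 4 were lost without replicate 2, with adjusted p of 0.0615 for Rab21, 0.113 for Rab22a, 0.0521 for Rab31 and 0.13 for Rab5c, and Rab22a was also lost without replicate 3 (adjusted p = 0.215) and with equal totals (adjusted p = 0.101). To show the DNA in front of these genes, the 250 bases before the RefSeq start (build GRCm38.p6) are printed for Rab20, which had the largest early LPS rise, for the 3 Rab5 genes, whose courses parted, and for Rab32, which LPS and IL-4 moved apart. Each runs 5′ to 3′ on the gene's own strand, and capitals mark a match to 1 of 5 motifs searched on both strands.
Rab20 (chr8:11478641-11478890, strand minus): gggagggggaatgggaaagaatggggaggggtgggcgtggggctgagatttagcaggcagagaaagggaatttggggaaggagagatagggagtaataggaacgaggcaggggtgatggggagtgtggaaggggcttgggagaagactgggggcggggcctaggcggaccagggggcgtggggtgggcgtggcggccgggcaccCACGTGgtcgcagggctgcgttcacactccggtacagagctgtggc
Rab5a (chr17:53478984-53479233, strand plus): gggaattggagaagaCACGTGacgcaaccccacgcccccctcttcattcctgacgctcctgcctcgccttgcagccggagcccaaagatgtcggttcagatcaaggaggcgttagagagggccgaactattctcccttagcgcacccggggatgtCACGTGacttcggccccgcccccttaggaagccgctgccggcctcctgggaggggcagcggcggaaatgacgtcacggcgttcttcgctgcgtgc
Rab5b (chr10:128696269-128696518, strand minus): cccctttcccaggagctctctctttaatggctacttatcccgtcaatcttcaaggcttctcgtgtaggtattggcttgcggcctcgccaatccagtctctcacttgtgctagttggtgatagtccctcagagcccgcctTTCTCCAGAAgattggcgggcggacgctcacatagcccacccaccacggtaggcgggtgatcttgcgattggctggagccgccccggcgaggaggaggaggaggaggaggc
Rab5c (chr11:100738216-100738465, strand minus): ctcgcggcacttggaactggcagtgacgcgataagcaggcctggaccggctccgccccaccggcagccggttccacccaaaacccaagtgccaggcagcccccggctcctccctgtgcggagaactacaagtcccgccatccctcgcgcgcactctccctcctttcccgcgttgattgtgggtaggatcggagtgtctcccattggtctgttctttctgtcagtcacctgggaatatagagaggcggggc
Rab32 (chr10:10558208-10558457, strand minus): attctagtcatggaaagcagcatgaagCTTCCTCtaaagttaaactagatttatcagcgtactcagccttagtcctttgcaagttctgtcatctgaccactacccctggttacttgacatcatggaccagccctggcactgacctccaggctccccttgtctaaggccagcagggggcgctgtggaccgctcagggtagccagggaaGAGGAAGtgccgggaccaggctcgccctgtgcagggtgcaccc
The capitals are the E-box CACGTG in Rab20 and, at 2 places, in Rab5a, the STAT motif TTCNNNNGAA in Rab5b, and the PU.1 core GAGGAAG, once as its reverse complement, in Rab32. No capitals stand in the Rab5c window.

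RefSeq windows were matched for 36 of the 45 genes, 43 windows in all, and 9 genes (Rab18, Rab26, Rab2a, Rab30, Rab37, Rab38, Rab44, Rab4a and Rab7b) had none in the table used. The E-box was in 5 of the 43 windows and in 6.02% of all 32851 windows. The PU.1 core was in 5, with 10.6% of all windows, and the STAT motif in 2, Rab11b and Rab5b, with 5.85%. The NF-κB consensus was in 1, Rab28, with 3.90% of all windows. The AP-1 motif TGANTCA was in 0 of the 43, with 6.75% of all windows. The Rab windows had a median GC content of 62.8% against 52.4% for all windows, and a median of 18 CpG pairs against 6. A match says only that these letters stand in the window.

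Rab20, which acts in phagosome maturation, had the steepest early rise. Its normalised counts were 161, 120 and 102 in the untreated samples and 1953, 1393 and 1300 after 0.5 h of LPS. Every LPS sample was far above every untreated sample, and replicate 1 was the highest in both groups. The log2 fold change was 3.59 (SE 0.28, adjusted p = 4.4e-08), a 12.1-fold ratio of means. By 4 h the samples read 710, 411 and 401, a fall of 1.64 on the log2 scale from 0.5 h (SE 0.28, adjusted p = 9.29e-05) that still left them above the untreated ones.

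The 3 Rab5 genes, which encode close relatives that drive early endosome fusion, followed different courses. Rab5a was at 250, 268 and 257 in untreated samples and at 635, 626 and 524 after 2 h of LPS, a log2 change of 1.20 (SE 0.11, adjusted p = 9.75e-08). Rab5c was at 153, 130 and 177 untreated and at 646, 511 and 521 after 2 h, a log2 change of 1.86 (SE 0.15, adjusted p = 3.49e-08). Both stood clear of the untreated range at that time, and neither gene's samples overlapped between the groups. Rab5b was at 147, 160 and 135 untreated, at 226, 236 and 195 after 0.5 h and at 108, 100 and 84 after 4 h. It lay above the untreated range early and below it late, and the fall of 1.16 on the log2 scale between the 2 times (SE 0.14, adjusted p = 1.98e-06) held under both other scalings, while neither its early rise nor its late fall against untreated cells did.

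Ratios within a sample do not depend on the scaling. The ratio of the Rab5c to the Rab5b value was 1.04, 0.812 and 1.31 in the untreated samples and 5.66, 5.29 and 5.57 after 4 h of LPS. After 2 h of IL-4 it was 1.89, 1.71 and 1.68, also above the untreated range. The level of 1 Rab5 gene relative to another therefore differed between the groups without overlap, although the ratio is not corrected for gene length.

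Rab22a, Rab21 and Rab31, endosomal relatives of Rab5, had their late LPS samples well above the untreated range. Rab22a, which works in endosomal sorting and recycling, was at 359, 315 and 326 untreated, at 273, 294 and 207 after 0.5 h and at 1133, 1131 and 1047 after 4 h of LPS. Its early samples lay below and its late ones above the untreated range, with a late log2 fold change of 1.73 (SE 0.12, adjusted p = 7.13e-09), while its early call of -0.38 was lost with another scaling. Rab31, which works between the trans-Golgi network and endosomes, was at 845, 755 and 770 untreated and at 1763, 2027 and 1903 after 4 h (log2 change 1.26, SE 0.14, adjusted p = 8.15e-07). Rab21, tied to integrin traffic and phagocytosis, was at 192, 183 and 188 untreated and already at 256, 302 and 265 after 0.5 h, a log2 change of 0.54 (adjusted p = 0.00131) that was 0.03 with equal totals (adjusted p = 0.828) and did not pass without replicate 2 (adjusted p = 0.0634). It was at 1.26 at 2 h and 1.21 at 4 h on the same scale. Their calls at 4 h were kept under both scalings.

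**Figure D2:**
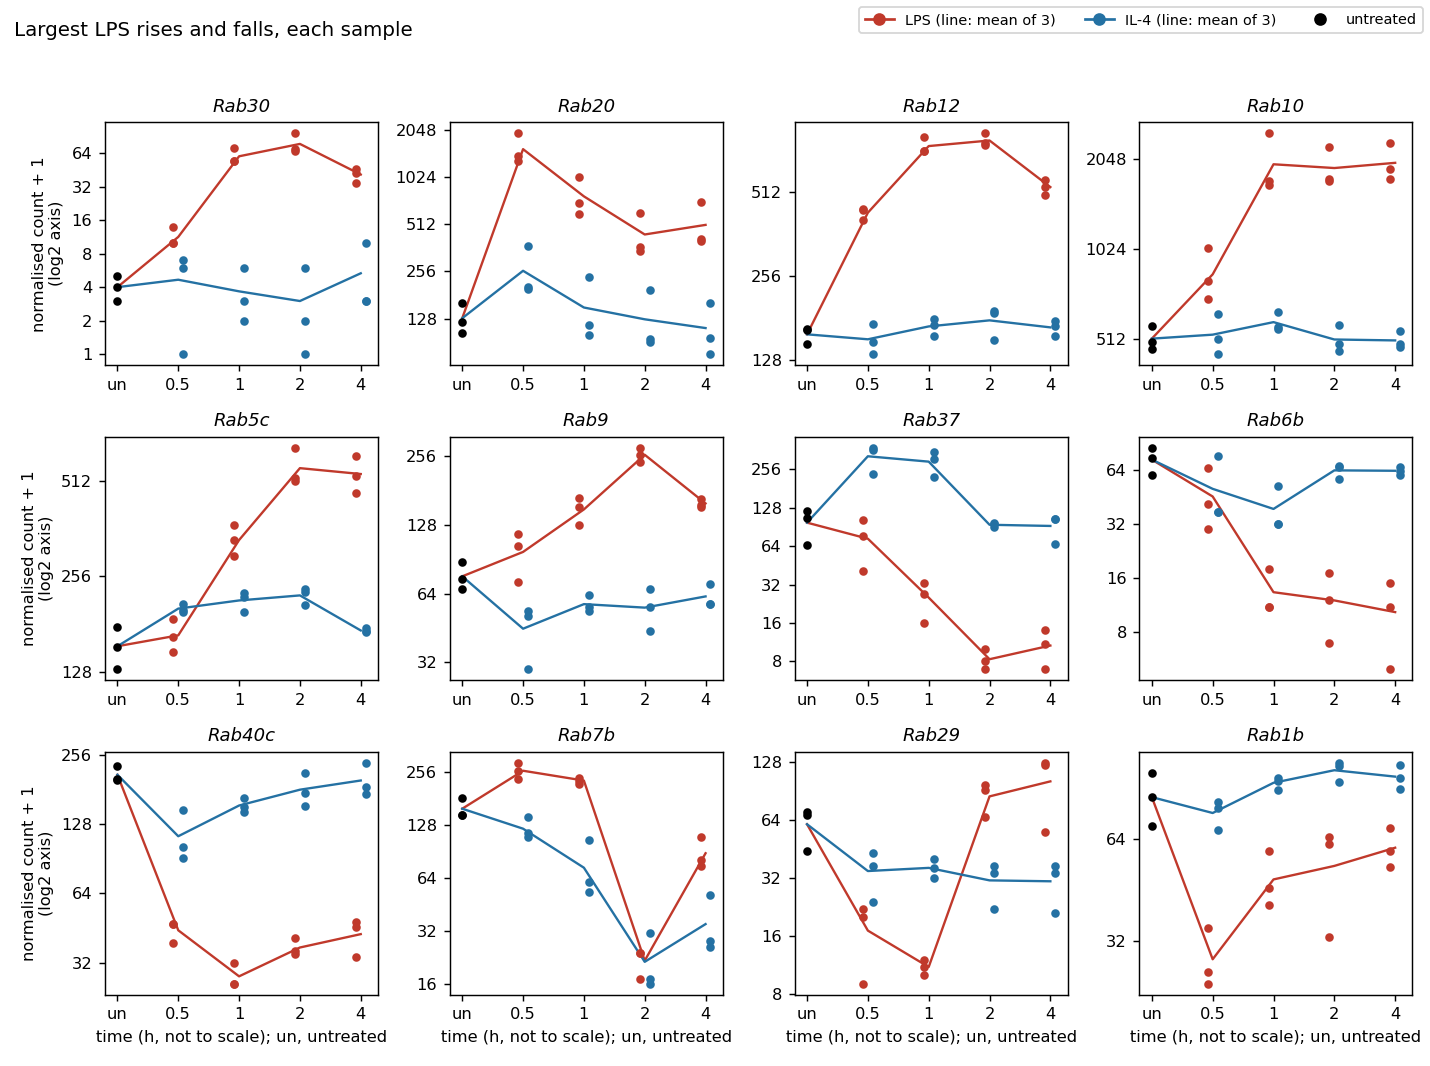
Normalised count + 1 (log2 axis) in each sample for the 6 largest LPS rises (Rab30 to Rab9) and the 6 largest falls (Rab37 to Rab1b) among Rab genes with a mean of at least 50 in the higher group and no overlap at the peak, untreated and after each time of LPS (red) or IL-4 (blue), with time points evenly spaced and lines through the means. Rab20 peaks at 0.5 h, Rab10 and Rab5c stay high to 4 h, and Rab37 rises under IL-4 while it falls under LPS.

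Among the Rabs of late endosomes, lysosomes and autophagy, 5 of 6 passed the LPS course test (87.6% of all genes). The largest change was a rise in 3 and a fall in 2 (32.9% and 54.7% of all genes). Rab12, which sends receptors to lysosomes, was at 144, 164 and 162 untreated and at 754, 830 and 764 after 2 h, a log2 change of 2.31 (SE 0.10, adjusted p = 2.47e-11). Rab9, which returns mannose 6-phosphate receptors from late endosomes to the Golgi, was at 73, 66 and 87 untreated and at 242, 259 and 277 after 2 h, a log2 change of 1.78 (SE 0.18, adjusted p = 2.9e-07). For both genes the groups were far apart.

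Rab7 and Rab7b, which share a name but not a course, both act on late endosomes and lysosomes. Rab7 was at 505, 389 and 438 untreated and at 1386, 1056 and 952 after 0.5 h, a log2 change of 1.34 (SE 0.15, adjusted p = 2.94e-06), and its 2 h value of 0.21 did not pass (adjusted p = 0.222). Rab7b, known to limit TLR4 and TLR9 signalling, was at 182, 146 and 146 untreated, at 233, 288 and 261 after 0.5 h and at 16, 23 and 23 after 2 h of LPS. Its samples rose above the untreated range and then dropped well below it, with a log2 change of -2.89 at 2 h (SE 0.18, adjusted p = 1.25e-09) that was partly made up by 4 h (-0.86, adjusted p = 0.000619). The ratio of the Rab7 to the Rab7b value went from 2.77, 2.66 and 3 in untreated samples to 35.7, 21.2 and 21.0 after 2 h of LPS. Rab39, a Golgi and endosomal Rab linked to autophagy, was low, at 34, 28 and 44 untreated and at 5, 12 and 8 after 0.5 h (log2 change -2.01, SE 0.42, adjusted p = 0.00094). Rab24 did not pass the course test (adjusted p = 0.32).

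The 3 Rabs of lysosome-related organelles all passed the LPS course test (87.6% of all genes) and differed in direction. Rab32, which acts on melanosomes, mitochondria and pathogen-containing vacuoles, was at 156, 161 and 185 untreated and at 382, 540 and 543 after 1 h, all above the untreated range (log2 change 1.52, SE 0.24, adjusted p = 5.46e-05). Rab29, which recruits the kinase LRRK2 to membranes, was at 43, 67 and 69 untreated, at 11, 10 and 9 after 1 h and at 54, 125 and 122 after 4 h. The 1 h samples were all far below the untreated ones, with a log2 change of -2.44 (SE 0.36, adjusted p = 2.95e-05), and the rise of 2.58 from 0.5 h to 4 h passed (SE 0.36, adjusted p = 1.44e-05). Rab38, a close relative of Rab32, had 15, 9 and 13 untreated and 8, 6 and 2 after 0.5 h, and its log2 fold change of -1.19 there (SE 0.39, adjusted p = 0.0177) did not pass with median-of-ratios scaling (adjusted p = 0.0507), without replicate 2 (adjusted p = 0.0528) or without replicate 3 (adjusted p = 0.219).

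In the recycling endosome group, 5 of 6 passed the LPS course test (87.6% of all genes). Rab4a, a Rab of rapid recycling, was at 7, 24 and 23 untreated and at 0, 0 and 1 after 4 h, the deepest late fall of the group (log2 change -3.74, SE 0.59, adjusted p = 4.59e-05), and its low replicate 1 ran from 7 to 6 at 0.5 h while replicates 2 and 3 held 22 and 25. Rab14, a Rab of the Golgi and recycling endosomes, was at 432, 336 and 371 untreated and at 216, 207 and 201 after 2 h, below the untreated range (log2 change -0.86, SE 0.12, adjusted p = 1.9e-05). Rab11a, the main recycling endosome Rab, was at 241, 288 and 264 untreated and at 435, 487 and 460 after 1 h (log2 change 0.80, SE 0.11, adjusted p = 1.22e-05), and with equal totals this was 0.22 and did not pass (adjusted p = 0.0899). Its relative Rab11b peaked earlier, at 196, 160 and 168 after 0.5 h against 104, 86 and 71 untreated (log2 change 1.01, adjusted p = 7.76e-05).

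In the endoplasmic reticulum and Golgi group, 10 of 11 passed the LPS course test (87.6% of all genes). The largest change was a rise in 5 and a fall in 5 (32.9% and 54.7% of all genes). Rab30, a Golgi Rab, was at 4, 3 and 2 in untreated samples and at 66, 69 and 96 after 2 h of LPS. All LPS samples from 1 h on lay far above the untreated ones. No test is given, because this gene passed the minimum through LPS samples alone. Rab1b and Rab1a, close relatives that act in traffic from the endoplasmic reticulum to the Golgi, parted: Rab1b was at 99, 69 and 84 untreated and at 25, 34 and 23 after 0.5 h (log2 change -1.59, SE 0.26, adjusted p = 0.000113), while Rab1a was at 518, 461 and 488 untreated and at 878, 1022 and 1029 after 4 h (log2 change 0.99, SE 0.13, adjusted p = 4.71e-06). The ratio of Rab1a to Rab1b was 5.23, 6.68 and 5.81 untreated and 33.2, 18.4 and 26.5 after 0.5 h, without overlap.

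Rab6a and Rab6b, Golgi Rabs of which Rab6b is best known from neurons, parted as well. Rab6b was at 83, 59 and 73 untreated and at 4, 14 and 10 after 4 h, with a log2 change of -2.94 (SE 0.42, adjusted p = 1.88e-05), and Rab6a was at 153, 177 and 175 untreated and at 323, 361 and 315 after 1 h, with a log2 change of 0.98 (SE 0.16, adjusted p = 9.44e-05) whose call at 1 h was kept under both other scalings. Rab43, a Golgi Rab with a role in receptor export, was at 269, 273 and 284 untreated, at 189, 106 and 123 after 0.5 h and at 946, 798 and 833 after 4 h. Its early samples lay below and its late samples far above the untreated range, and the early fall of 1.02, the late rise of 1.63 and the change of 2.66 between the 2 times (SE 0.17, adjusted p = 2.81e-09) kept their calls under both scalings.

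In the group of exocytosis and secretory granules, 7 of 8 passed the LPS course test (87.6% of all genes). The largest change was a rise in 3 and a fall in 4 (32.9% and 54.7% of all genes). Rab10, which is known to carry TLR4 to the plasma membrane, was at 565, 503 and 475 untreated and at 2307, 1898 and 1756 after 4 h of LPS. All LPS samples stood above the untreated ones from 0.5 h on, with a log2 change of 1.94 at 4 h (SE 0.18, adjusted p = 1.16e-07). Rab8b, a Rab of exocytosis and cell shape, was the most abundant of the Rab genes per kb and went from 2246, 2073 and 2162 untreated to 7401, 6000 and 6791 after 2 h (log2 change 1.63, SE 0.13, adjusted p = 1.78e-08). Rab8a, its close relative, was at 120, 129 and 151 untreated and at 358, 427 and 387 after 2 h (log2 change 1.55, SE 0.15, adjusted p = 3.25e-07). Both groups were separate from the untreated samples at 2 h, while at 0.5 h Rab8b had risen (1.27) and the Rab8a value was -0.00 (adjusted p = 1).

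The secretory Rabs Rab37, Rab3a and Rab27a fell. Rab37, which is known from mast cell granules and cytokine secretion, was at 64, 121 and 106 untreated and at 6, 7 and 9 after 2 h of LPS (log2 change -3.52, SE 0.38, adjusted p = 8.43e-07), and Cd300lf, another gene of myeloid cells, overlaps it on the other strand. Rab3a, the Rab of regulated exocytosis in neurons, was at 9, 14 and 22 untreated and at 1 or 0 in the LPS samples of every time. Rab27a, which docks lysosome-related granules and exosome-bearing endosomes, was at 9, 22 and 16 untreated and at 2, 2 and 2 after 2 h (log2 change -2.39, SE 0.47, adjusted p = 0.000337). No LPS sample of Rab37 or Rab3a from 1 h on reached the untreated range, and the counts of Rab3a and Rab27a are low.

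The remaining group, the cilium-linked Rabs and the Rab40 genes, had 3 of 4 past the LPS course test (87.6% of all genes). All 3 had falls (54.7% of all genes), and 1 of them, Rab40b, had passed the minimum only through IL-4 samples. Rab40c, which has a SOCS box and joins a ubiquitin ligase, was at 228, 198 and 199 untreated and at 25, 31 and 25 after 1 h of LPS. The 2 groups were widely apart at every time, with a log2 change of -2.91 at 1 h (SE 0.18, adjusted p = 2.14e-09). Rab23, a Rab of Hedgehog signalling and cilia, was at 10, 17 and 15 untreated and at 3, 4 and 4 after 0.5 h (log2 change -1.66, SE 0.34, adjusted p = 0.000716). Rab28, which also acts at the cilium, did not pass (adjusted p = 0.41).

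**Figure D3:**
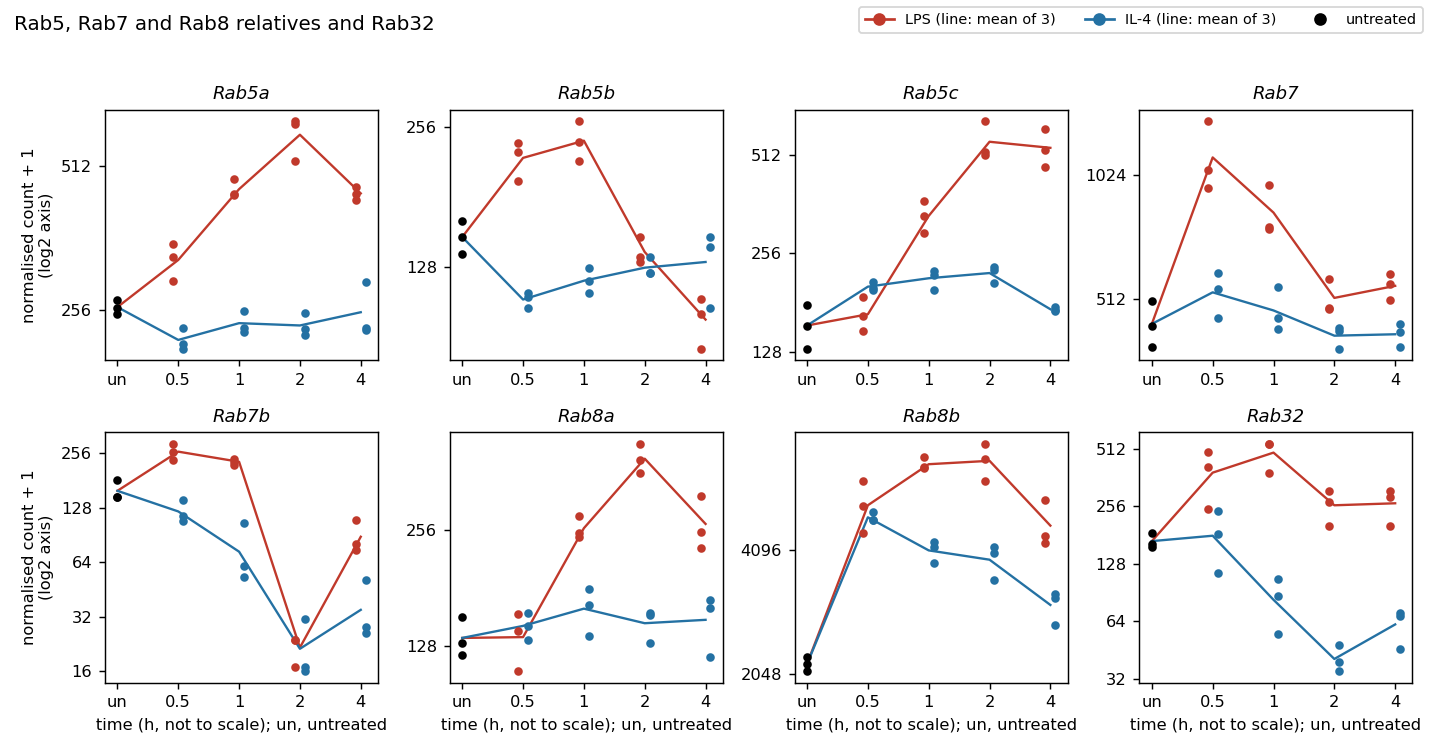
Normalised count + 1 (log2 axis) in each sample for the Rab5, Rab7 and Rab8 relatives and for Rab32, untreated and after each time of LPS (red) or IL-4 (blue), with lines through the means and time points evenly spaced. Rab5b turns down after 1 h of LPS while Rab5a and Rab5c climb to 2 h, Rab7b drops at 2 h under both stimuli, and Rab32 is higher under LPS than under IL-4 from 0.5 h on.

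The second question was the course under IL-4. Of the 45 Rab genes, 20 passed the course test, 44.4% against 40.3% of all genes, with a rise as the largest change in 13 and a fall in 7 (background 19.4% and 20.9%). The rises and falls against untreated cells numbered 8 and 5 after 0.5 h (background 8.15% and 8.14%), 11 and 5 after 1 h (background 11.1% and 9.83%), 8 and 5 after 2 h (background 14.3% and 13.2%), and 5 and 5 after 4 h (background 13.4% and 12.5%). With equal totals the splits, given without shares of all genes, were 6 and 7, 7 and 10, 8 and 7, and 5 and 5, and over the course 12 and 13. The count over the course fell to 7 without replicate 2 (background 16.1%), 9 without replicate 3 (background 15.6%) and 10 with replicates 2 and 3 averaged (background 17.9%). Past the threshold whichever replicate was left out, with the same direction, were Rab37 and Rab8b, which rose, and Rab32 and Rab7b, which fell. Rab19, Rab3a and Rab44 had passed the minimum through IL-4 samples and are only described. The LPS and IL-4 comparisons share the 3 untreated samples.

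Rab44, Rab19, Rab37 and Rab8b had the largest fitted IL-4 increases. Rab44, a large atypical Rab known from mast cells and osteoclasts, was at 1, 4 and 1 untreated and at 29, 14 and 26 after 0.5 h and 27, 17 and 19 after 4 h, every IL-4 sample above every untreated one. Rab19, a Rab reported at the Golgi, was at 4, 7 and 4 untreated and at 20, 27 and 20 after 4 h. Both genes passed the minimum through IL-4 samples. Rab37 was at 236, 374 and 361 after 0.5 h of IL-4 against 64, 121 and 106 untreated, a log2 change of 1.75 (SE 0.26, adjusted p = 0.000306), and at 66, 104 and 104 after 4 h it was back among the untreated values. Rab8b was at 4822, 5063 and 4837 after 0.5 h, more than the untreated 2246, 2073 and 2162 in every sample, with a log2 change of 1.18 (SE 0.09, adjusted p = 7.4e-07) that declined to 0.47 at 4 h (adjusted p = 0.00136), where it was lost without replicate 2 (adjusted p = 0.102) or replicate 3 (adjusted p = 0.0811).

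Smaller rises were seen in some endosomal Rabs, and also outside them, as in Rab18. Other endosomal Rabs had falls past the threshold, among them Rab5b and Rab9 at 0.5 h and Rab11a at 4 h. Those 3 falls were lost without replicate 2 or replicate 3. Rab5c had a log2 change of 0.54 at 2 h of IL-4 (SE 0.10, adjusted p = 0.00117), with samples at 232, 227 and 207, and without replicate 2 it did not pass (adjusted p = 0.0688). Rab35, a Rab of recycling endosomes and actin control, was at 49, 54 and 46 untreated and at 72, 74 and 69 after 2 h (log2 change 0.52, SE 0.11, adjusted p = 0.00262), and without replicate 3 it did not pass (adjusted p = 0.0925). Rab31 was at 1216, 1087 and 1036 after 0.5 h, above its untreated samples, with a log2 change of 0.49 (SE 0.11, adjusted p = 0.00871), which was lost without replicate 2 (adjusted p = 0.138) or replicate 3 (adjusted p = 0.113).

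Rab7b and Rab32 fell most under IL-4. Rab7b was at 30, 15 and 16 after 2 h against 182, 146 and 146 untreated, a log2 change of -2.96 (SE 0.31, adjusted p = 9.54e-06). Rab32 was at 34, 47 and 38 after 2 h against 156, 161 and 185, a log2 change of -2.06 (SE 0.28, adjusted p = 8.59e-05). Both lay far below the untreated range at 2 h and were still below it at 4 h, where the log2 fold changes were -2.24 and -1.47, the second lost without replicate 3 (adjusted p = 0.0598). Rab43 fell at 0.5 h, to 175, 113 and 129 from 269, 273 and 284 (log2 change -1.0, SE 0.14, adjusted p = 0.000235), and so did Rab40c, to 146, 101 and 90 from 228, 198 and 199 (log2 change -0.91, SE 0.17, adjusted p = 0.00222). The Rab40c call was lost without replicate 2 (adjusted p = 0.106) or replicate 3 (adjusted p = 0.0818).

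Same-numbered IL-4 and untreated samples deviated together, and a replicate block changed several IL-4 calls. With the block, Rab11a, Rab14, Rab20, Rab29, Rab4a, Rab6a, Rab6b, Rab7 and Rab9 passed the course test too, which made 29 of the 45 genes, against 53.3% of all genes with the block. Rab20 was at 374, 202 and 197 after 0.5 h of IL-4 against 161, 120 and 102 untreated, higher in each of the 3 replicate pairs and in every sample, with a log2 change of 0.97 (SE 0.39). That did not pass without the block (adjusted p = 0.123) and did with it (adjusted p = 1.98e-05). Rab7, at 592, 541 and 458 after 0.5 h, had a log2 change of 0.26 with an adjusted p of 0.186 without the block and 0.0286 with it. Rab5a had values from -0.23 to -0.04 and passed at no time as deposited.

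The third question was where LPS and IL-4 differ at the same time. They differed in 29 of the 45 Rab genes after 0.5 h, against 53.8% of all genes, in 37 after 1 h (background 64.5%), in 32 after 2 h (background 68.6%) and in 35 after 4 h (background 68.0%). The level under LPS was the higher one in 13, 20, 18 and 20 of these, given without a share of all genes by direction. These counts come from a fit with no replicate block, so they ignore the pairing of same-numbered samples. With median-of-ratios scaling the splits into higher and lower, also without such shares, were 16 and 11, 22 and 12, 22 and 13, and 21 and 12. With equal totals they were 8 and 26, 12 and 21, 12 and 26, and 14 and 25. The differences kept under both scalings and with each replicate left out were 6 toward LPS and 10 toward IL-4 after 0.5 h, then 12 and 8, 12 and 9, and 14 and 11 at the later times. These counts also stand without shares of all genes, and they include genes described without a test. Toward LPS that is Rab30 from 1 h on. Toward IL-4 they are Rab3a at every time and Rab19, Rab40b and Rab44 at some times.

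Rab30, Rab32 and Rab20 had the highest values toward LPS. Rab30 was at 66, 69 and 96 after 2 h of LPS and at 5, 0 and 1 after 2 h of IL-4, given without a test because LPS samples had brought it past the minimum. Rab32 stood 2.66 higher at 2 h on the log2 scale (SE 0.28, adjusted p = 1.18e-08), with 200, 307 and 268 against 34, 47 and 38. Rab20 stood 2.63 higher at 0.5 h (SE 0.36, adjusted p = 1.48e-06). In all 3 genes the lowest LPS sample was above the highest IL-4 sample.

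Toward IL-4 the furthest were Rab3a, Rab37 and Rab19. Rab3a stood at 29, 25 and 35 after 4 h of IL-4 and at 1, 1 and 0 after 4 h of LPS. Its difference of -4.26 is given without a test, because only IL-4 samples brought it past the minimum. Rab37 stood at 221, 351 and 309 after 1 h of IL-4 and at 15, 26 and 32 after 1 h of LPS, a difference of -3.58 (SE 0.33, adjusted p = 1.55e-09). Rab19 stood at 20, 27 and 20 after 4 h of IL-4 and at 1, 2 and 4 after 4 h of LPS, given without a test because it passed the minimum mainly through IL-4 samples. None of these pairs of groups overlapped, and the low counts of Rab3a under LPS make the size of its difference depend on the pseudocount.

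**Figure D4:**
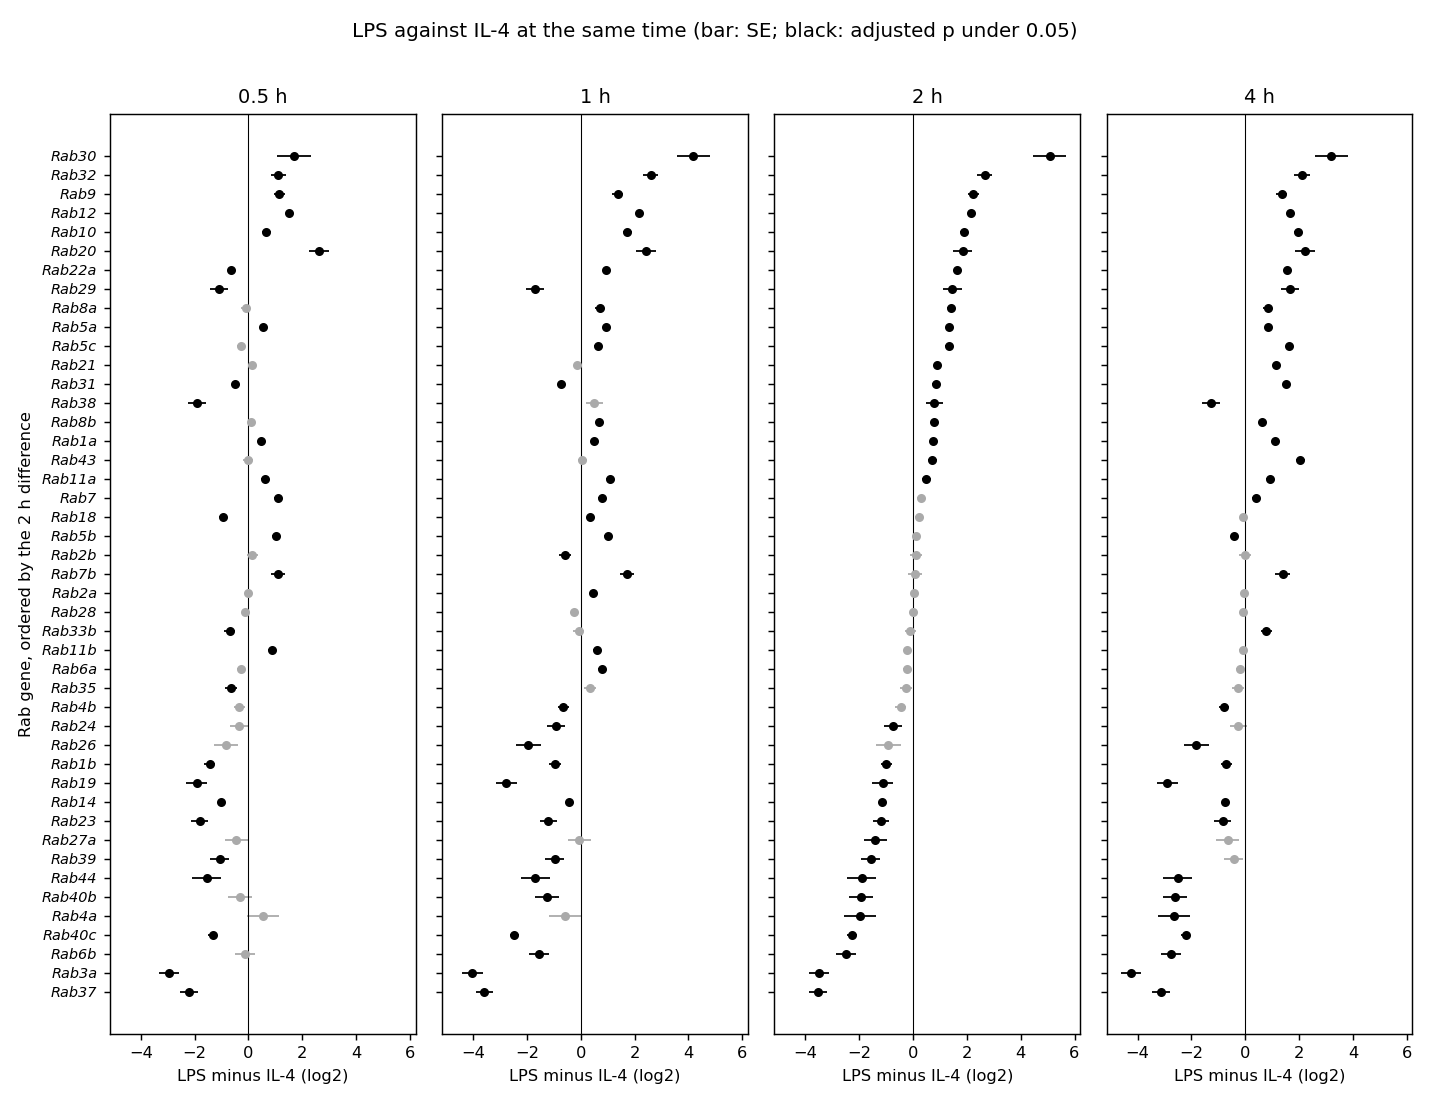
Difference between LPS and IL-4 (log2 of normalised count + 1, LPS minus IL-4) for 45 Rab genes at each time (panels), ordered by the 2 h difference. Points are the limma estimates with bars of 1 SE and are black where the adjusted p is under 0.05, which is no test for Rab19, Rab30, Rab3a, Rab40b and Rab44. Rab30 and Rab32 lead toward LPS and Rab37 and Rab3a toward IL-4 at 2 h, and Rab29 and Rab31 change side between 1 h and 2 h.

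Some Rab genes moved apart from the untreated level in opposite directions. Rab32 was higher under LPS and lower under IL-4 at 1 h, 2 h and 4 h, with log2 fold changes of 1.52 and -1.07 at 1 h. Its LPS rise was kept under both scalings at 1 h but not at 2 h or 4 h. Its IL-4 fall at 1 h was lost without replicate 3 (adjusted p = 0.189). Rab37 was lower under LPS and higher under IL-4 at 1 h, with log2 fold changes of -1.97 and 1.61. Rab3a was lower under LPS (-3.25) and higher under IL-4 (1.01) at 4 h, a description only, since IL-4 samples had brought it past the minimum. Its IL-4 call was also lost when any 1 replicate was left out (adjusted p from 0.059 to 0.147). Rab7b was apart at 1 h, at 0.54 under LPS and -1.18 under IL-4. The LPS value was -0.04 with equal totals and did not pass without replicate 2 (adjusted p = 0.149) or replicate 3 (adjusted p = 0.0914), and the IL-4 one did not without replicate 2 (adjusted p = 0.181) or replicate 3 (adjusted p = 0.217). At 2 h both stimuli had lowered it, with a difference of 0.07 (SE 0.27, adjusted p = 0.825). Rab10, Rab12 and Rab9 were among the genes higher under LPS than under IL-4 at all 4 times, while under IL-4 Rab12 ranged from -0.06 to 0.16 and passed at no time.

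The late and early responses were also compared. Between 4 h and 0.5 h of LPS, 25 of the 45 Rab genes differed, against 63.0% of all genes. Of these, 16 were higher at 4 h and 9 lower, with no share of all genes by direction given. Rab43 (2.66), Rab29 (2.58) and Rab22a (2.11) were among those higher late, and Rab4a (-3.68), Rab37 (-2.74), Rab6b (-2.20), Rab20 (-1.64) and Rab7b (-1.58) among those lower late. Between 4 h and 0.5 h of IL-4, 13 differed, against 27.3% of all genes. At 4 h, 5 were higher and 8 lower, and with equal totals 11 higher and 6 lower, again without shares by direction. Rab7b (-1.87), Rab37 (-1.81), Rab31 (-0.75) and Rab8b (-0.71) were lower late whichever replicate was left out and under both scalings, and none of the 5 that were higher late passed in all 3 fits with a replicate left out.

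The last question was how the genes that control Rabs behaved. Of 134 listed regulators and effectors, 133 were in the table and 115 were tested. Under LPS, 113 of the 115 changed over the course (98.3%, against 87.6% of all genes), 34 mainly by a rise and 79 by a fall (all genes 32.9% and 54.7%), and with equal totals 18 and 96 of 114. Under IL-4, 52 changed (45.2%, against 40.3%), 23 with a rise and 29 with a fall (all genes 19.4% and 20.9%), and leaving out replicate 2 or replicate 3 brought the count to 28 or 26 (all genes 16.1% and 15.6%). By list, the LPS rises and falls were 13 and 17 of 31 exchange factors, 9 and 28 of 38 GTPase-activating proteins, 11 and 28 of 39 effectors, and 1 and 6 of 7 genes of prenylation, escort and recycling. Under IL-4 they were 7 and 7, 9 and 11, 7 and 9, and 0 and 2.

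**Figure D5:**
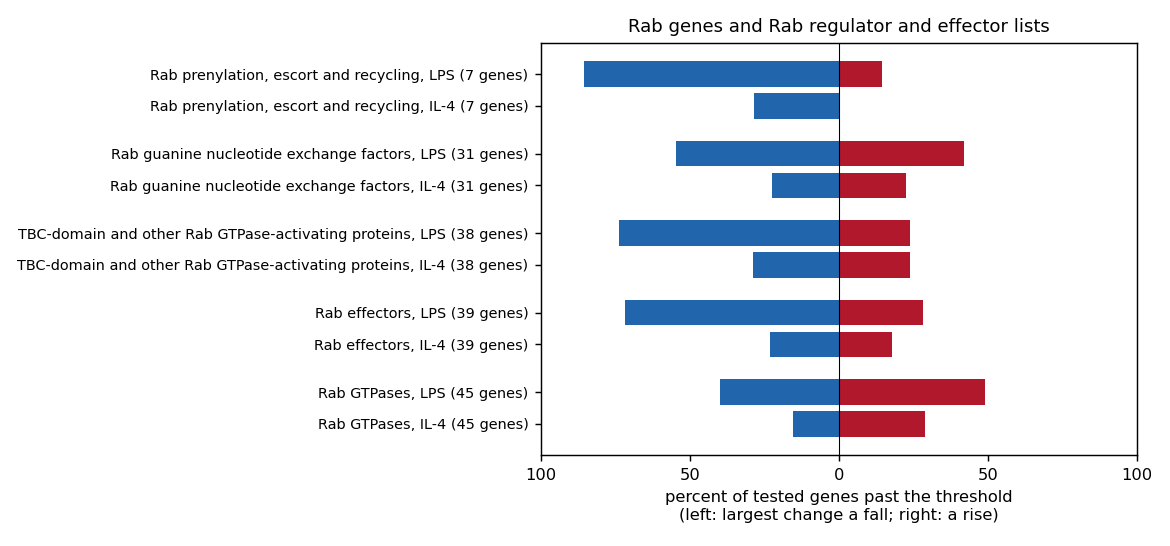
Percent of tested genes past the threshold over the LPS or IL-4 course, split by whether the largest change was a rise (right) or a fall (left), for 4 lists of Rab regulators and effectors and for the 45 Rab GTPases. Under LPS the falls outnumber the rises in each regulator list, as they do among all genes (32.9% with a rise and 54.7% with a fall), and 22 of 45 Rab GTPases have a rise and 18 a fall.

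Among the effectors and exchange factors, Rab11fip1, an effector of Rab11 on recycling endosomes, went from 16 to 35 normalised counts untreated to 1082 to 1226 after 1 h of LPS (log2 change 5.38, SE 0.22, adjusted p = 2.27e-11). Rin2, a Rab5 exchange factor, had a log2 change of 3.88 at 4 h of LPS (SE 0.21, adjusted p = 2.78e-10) and of -1.52 at 2 h of IL-4 (SE 0.24, adjusted p = 0.000306). Optn, optineurin, a Rab8 effector and autophagy receptor, had a log2 change of 3.71 at 4 h of LPS (SE 0.19, adjusted p = 1.39e-10). Rab11fip1 and Optn samples under LPS lay far above every untreated sample. Annotated genes also overlap Rab11fip1, Rin2, Tbc1d4, Tbc1d16 and Dennd4a.

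The deepest LPS falls were Tbc1d31, a centrosomal TBC protein (-4.96 at 4 h, SE 0.45, adjusted p = 1.05e-07), Rab3il1, an exchange factor for Rab3a and Rab8 (-4.88 at 4 h, SE 0.25, adjusted p = 1.68e-10), and Tbc1d4, also called AS160, which acts on Rab10 and Rab8a in glucose transporter traffic (-4.35 at 4 h, SE 0.31, adjusted p = 7.2e-09). Tbc1d4 moved the other way under IL-4, from 694 to 1132 untreated to 2368 to 2817 after 4 h (log2 change 1.62, SE 0.24, adjusted p = 0.000228). Tbc1d16, a TBC protein for Rab4a, had the largest IL-4 rise, from 151 to 178 untreated to 1461 to 2160 after 1 h (log2 change 3.41, SE 0.15, adjusted p = 5.58e-09), against -3.67 at 1 h of LPS. Ric1, part of the Rab6 exchange factor, rose by 1.51 at 2 h of IL-4 (SE 0.08, adjusted p = 2.49e-08). Dennd4a, a Rab10 exchange factor, and Dennd2c, of the same DENN family, fell by 1.37 at 2 h and by 1.17 at 4 h of IL-4.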

How the data were processed

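Chromatin-associated RNA from 27 samples of wild-type mouse macrophages (9 groups of 3) was analysed. Per the labels and the study's methods, the authors made Smart-seq2 libraries with random primers, aligned reads with TopHat2 2.1.1 to mm10, removed reads with several positions and blacklisted regions (bedtools 2.29.2), counted per gene and scaled the counts on genes taken as invariant. What the authors deposited is a whole-number score of this scaled expression, not raw counts, and depth per sample is unknown. The study's own tests over time were not used here.

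Genes at 10 or above in at least 3 samples were tested on log2(value + 1) with limma 3.58.1 (R 4.3.3, empirical Bayes with trend), in a fit of the 15 samples of each course and in a fit of all 27 for LPS against IL-4. Adjusted p is Benjamini-Hochberg over all 13901 genes, two-sided, with a threshold of 0.05. The code was tested on simulated data. Fold changes on this scale understate changes of low genes. Invariant-gene scaling fixes what counts as unchanged, so 2 other scalings were tried, with another pseudocount, other filters, left-out replicates and a replicate block.

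The members and gene lists were chosen with earlier results of these data known. Genes were named as the largest rises (6 for LPS, 4 for IL-4) and falls by peak change among those past the course test, with a mean of at least 50 in the higher group and no overlap at the peak, plus Rab5a, Rab5b, Rab5c, Rab7, Rab7b, Rab10, Rab11a, Rab14, Rab20, Rab27a, Rab31, Rab32, Rab38 and Rab39, plus the 3 largest LPS to IL-4 differences each way, and for regulators the 3 largest rises and falls. Other genes were named after their values were seen, to fill out the site groups. Replicate numbers come from the labels. Deviations from group means of same-numbered samples correlated at 0.207 to 0.680 in the IL-4 course, 0.192 to 0.632 between LPS and IL-4, and 0.0897 to 0.596 in the LPS course, where 1 of 12 pairs was under 0.1. The numbers were taken to pair the samples for the first 2, and whether they do so in the LPS course was left undecided. All main fits, LPS against IL-4 among them, ignored this pairing, and the replicate block was only an alternative fit. Promoter sequences and gene positions are from RefSeq (GRCm38.p6).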

Additional observations from a re-analysis of the deposited data

Results flagged for a closer look

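The results here are those in which the effect of the same contrast differed between stimuli or times by a test of the difference itself (limma). LPS and IL-4 differed in 29 of 45 Rab genes after 0.5 h (53.8% of all genes), in 37 after 1 h (64.5%), in 32 after 2 h (68.6%) and in 35 after 4 h (68.0%), and 4 h differed from 0.5 h in 25 under LPS (63.0%) and 13 under IL-4 (27.3%). Rab genes past the threshold in opposite directions under the 2 stimuli had these log2 differences (LPS minus IL-4). At 0.5 h they were Rab22a (-0.66, adjusted p = 1.26e-05) and Rab5b (1.01, adjusted p = 5.28e-07). At 1 h they were Rab32 (2.59, adjusted p = 2.4e-08), Rab37 (-3.58, adjusted p = 1.55e-09) and Rab7b (1.72, adjusted p = 6.14e-06). At 2 h it was Rab32 (2.66, adjusted p = 1.18e-08), and at 4 h they were Rab11a (0.92, adjusted p = 9.21e-06) and Rab32 (2.11, adjusted p = 4.97e-07). Rab3a at 4 h (-4.26) is listed without a test, as only IL-4 samples brought it past the minimum.

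The opposite directions did not all hold. For Rab11a at 4 h, the LPS change of 0.29 became -0.32 with equal totals (adjusted p = 0.0173) and was lost without replicate 2 (adjusted p = 0.115) or replicate 3 (adjusted p = 0.181). Its difference from IL-4 was 0.30 with equal totals (adjusted p = 0.0709), and its IL-4 change was lost without replicate 2 (adjusted p = 0.105) or replicate 3 (adjusted p = 0.0824). The IL-4 changes of Rab22a (adjusted p = 0.262 and 0.217) and Rab5b (adjusted p = 0.261 and 0.156) at 0.5 h and of Rab7b at 1 h (adjusted p = 0.181 and 0.217) were also lost without replicate 2 and without replicate 3, in that order. The IL-4 change of Rab32 at 1 h was lost without replicate 3 (adjusted p = 0.189), as was the one at 4 h. The LPS changes of Rab5b at 0.5 h (adjusted p = 0.731), Rab7b at 1 h (adjusted p = 0.857) and Rab32 at 2 h (adjusted p = 0.858) and 4 h (adjusted p = 0.915) were lost with equal totals, that of Rab22a at 0.5 h with median-of-ratios scaling (adjusted p = 0.484), and the IL-4 change of Rab3a whichever replicate was left out.

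Under LPS, 5 Rab genes lay on opposite sides of the untreated level at 0.5 h and 4 h. The log2 difference (4 h minus 0.5 h) was 2.11 for Rab22a (adjusted p = 7.78e-10), 1.67 for Rab33b (adjusted p = 1.39e-05), 2.66 for Rab43 (adjusted p = 2.81e-09), -1.16 for Rab5b (adjusted p = 1.98e-06) and -1.58 for Rab7b (adjusted p = 1.42e-06). Of these, Rab43 kept both its early and its late call against untreated cells under both other scalings.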

How the results depend on the processing

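For 18 counts of Rab or regulator genes, most alternatives stayed within 1.5 times of the reported value, and the counts of LPS against untreated cells and of late against early LPS did so throughout. The IL-4 counts did not. With 1 replicate left out, the IL-4 course count of 20 ranged from 7 to 26, the counts of 13, 16, 13 and 10 at the single times, in order, ranged from 5 to 17, 5 to 21, 6 to 19 and 3 to 15, the late against early count of 13 from 4 to 18, and the regulator count of 52 from 26 to 71. The low ends came from leaving out replicate 2 or replicate 3. With replicates 2 and 3 averaged these counts were 10, 8, 6, 8, 4, 8 and 30. At 4 h of IL-4 the count was 6 with no filter and 6 with a mean of at least 50, and with that mean the LPS to IL-4 count was 21 at 2 h and 23 at 4 h, from 29 genes tested. Averaging and leaving out leave fewer samples, and the cause of the uneven effect of the 3 replicates was not tested.

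With the replicate block, the IL-4 course gave 29 genes and the LPS course 40. The block gave 74 regulators under IL-4, no Rab call of the fits without it was lost, and beyond the values given with the results it changed no direction. Of 524 alternative values for 54 single changes, 461 kept their side of the threshold, 49 lost it, 14 gained it and 0 turned direction. The 54 did not cover every Rab call. With equal totals, Rab2a at 2 h of LPS turned from 0.27 to -0.39 and Rab11a at 4 h of LPS from 0.29 to -0.32. Pseudocount 8 and 1 fit of all 27 samples moved no count by over 1.5 times. The values give no read depth, and for Rab genes near 10 the size of a fold rests on a few units.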

Other observations

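The members that fell below the minimum had low values in every group. Rab36 had normalised counts of 6, 8 and 4 untreated, 0, 0 and 0 after 4 h of LPS and 7, 9 and 10 after 4 h of IL-4, and Rab13 had 7, 13 and 9 untreated and 4, 1 and 6 after 4 h of LPS. Neither was tested. Samples of Rab25 were at 1 or below in untreated and LPS groups and between 0 and 4 under IL-4.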
